A study of Rattus norvegicus with 2 samples.

Results

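The genes of the cAMP pathway were compared between the 2RH30 and 2RS30 groups of the adrenal medulla. Members were found by symbol among probe sets annotated to 1 gene: adenylyl cyclases (Adcy followed by a number), PKA subunits and inhibitors (Prkac, Prkar, Pkia and Pkib), phosphodiesterases (Pde followed by a number), A-kinase anchors (Akap), and CREB with its coactivators (Creb1, Crebbp, Crtc1 and Crtc2). The rule gave 59 genes of 14217 on the array, read by 99 of its 20826 single-gene probe sets. RefSeq holds 64 protein-coding genes that fit the rule, and the other 5 (Adcy1, Adcy7, Akap17b, Pde11a and Pde6c) have no single-gene probe set and were not analysed here.

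Both groups were adult male Sprague-Dawley rats, with no genotype named, killed 30 min after plasma glucose reached its target of 40 to 50 mg/dL in an insulin clamp on day 4. The 2RH30 rats had recurrent hypoglycemia from intraperitoneal human insulin at 2 IU/kg, given 2 times daily over 3 days, with 1 injection on the last of them. The 2RS30 rats had saline injections on the same schedule and met hypoglycemia only in the clamp, so both groups carry the effects of insulin infusion, fasting and catheters. RNA of 6 left medullae per group was pooled on 1 Affymetrix Rat Genome 230 2.0 array, so animal-to-animal spread is not known, no p-value can be given and all values compare 2 pools. The arrays themselves differed, with an SD over probe sets of 1.57 in 2RH30 and 1.28 in 2RS30 and a mean difference of -3.25 over the 6 bioB hybridization controls, and the part of this in the values was not tested.

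Adenylyl cyclases make cAMP when Gs-coupled receptors are occupied, phosphodiesterases break it down, and cAMP releases the catalytic subunits of PKA from their regulatory subunits. Anchoring proteins hold PKA, often together with phosphodiesterases, at chosen membranes. Freed catalytic subunits enter the nucleus and phosphorylate CREB, which recruits CBP (Crebbp) and the CRTC coactivators. In chromaffin cells, the catecholamine-secreting cells of the medulla, the pathway is engaged by PACAP from the splanchnic nerve, and PKA phosphorylates tyrosine hydroxylase.

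Where a gene has several probe sets, the value quoted for it comes from the one with the highest mean of the 2 arrays. All differences are 2RH30 minus 2RS30 on the log2 scale, so 1 is a 2-fold difference, the threshold of the study. As deposited, 11 of 59 genes (18.6%) were 2-fold or more higher in 2RH30, against 11.5% of all genes, and 3 (5.08%) were 2-fold or more lower, against 9.62%. After the trend of differences with level was removed by lowess (level-adjusted), 8 (13.6%) were higher, against 8.95% of all genes, and 5 (8.47%) were lower, against 9.31%. With the 2 arrays quantile-normalized, the counts were 9 and 5, where 9.57% of all genes were higher and 9.31% lower. The median over the 59 genes was 0.15, beside 0.11 over all genes, and level-adjusted it was -0.02, beside 0.02. In both forms the share of higher genes was above that of the array, and the share of lower genes was below it, by less after level adjustment. This depended on the threshold and the probe set read. With the probe sets of each gene averaged, 6 of 59 were higher, beside 9.43% of all genes. At 1.5-fold 16 of 59 were higher, beside 25.9%, and at 3-fold 1 of 59, beside 3.05%. Without probe sets below the median of both arrays, 11 of 47 members were higher, beside 15.0% of all genes, and 2 lower, beside 7.81%. The median over these 47 was 0.16, beside 0.26 over all genes. No test of these shares is possible, and values differed by group and by gene.

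**Figure D1:**
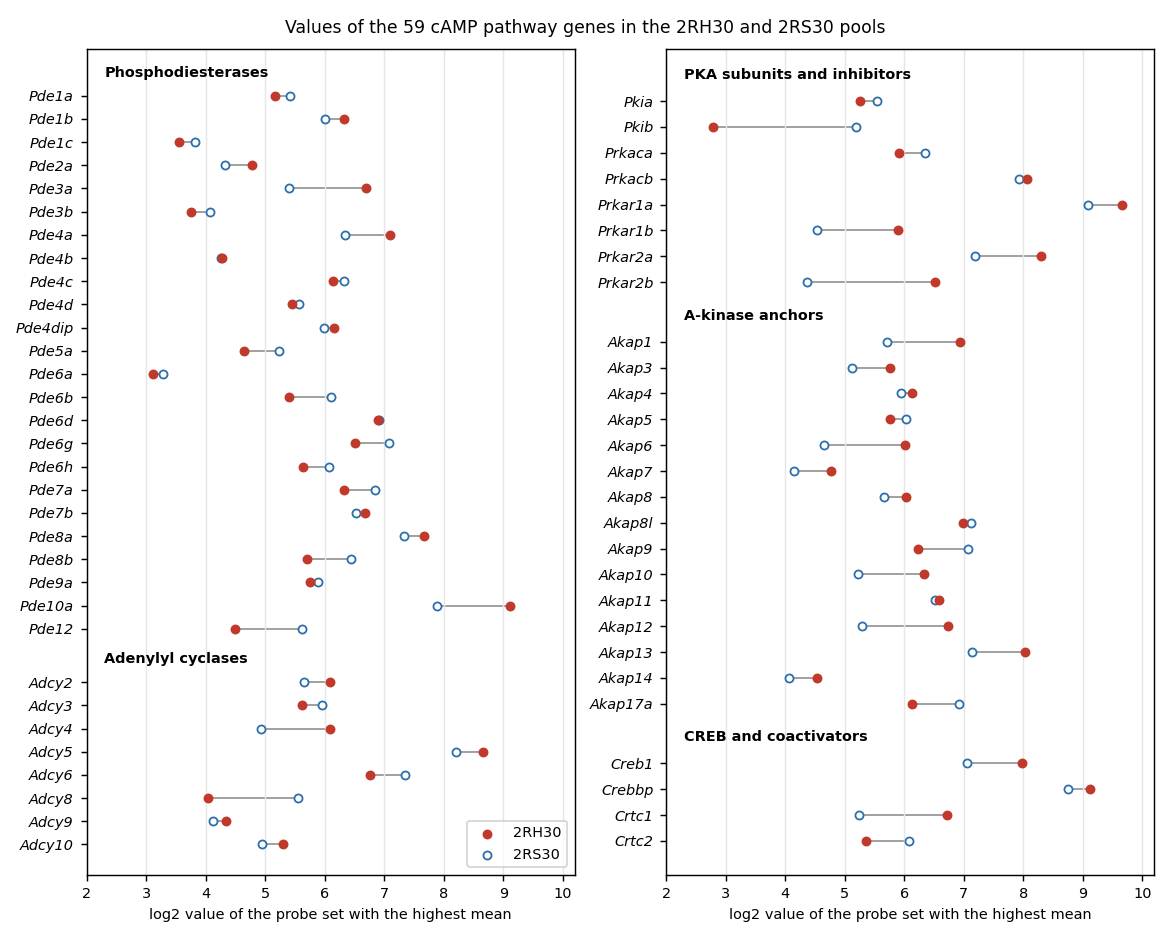
Log2 value (horizontal axis) of each of the 59 genes in 2RH30 (filled) and 2RS30 (open), 1 array of pooled RNA each, joined by a line and read from the probe set with the highest mean. The longest lines are those of Pkib, lower in 2RH30 at 2.78 against 5.18, and Prkar2b, higher in 2RH30 at 6.52 against 4.37. Where only a filled point shows, as for Pde4b and Pde6d, the open one lies behind it.

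The 8 adenylyl cyclase genes differed from -1.52 to 1.16, with a median of 0.29 (level-adjusted 0.12). Of them 1 (12.5%) was 2-fold higher and 1 (12.5%) 2-fold lower, beside 11.5% and 9.62% of all genes. Adcy4, a cyclase stimulated by G protein beta-gamma subunits, read 6.09 in 2RH30 and 4.92 in 2RS30, a difference of 1.16 (level-adjusted 1.10). Adcy8, which calcium-bound calmodulin stimulates, read 4.04 in 2RH30 and 5.55 in 2RS30, a difference of -1.52 (level-adjusted -1.32). Each has 1 probe set, so neither value has a second reading on the array. Adcy5, a cyclase that calcium inhibits, read 8.66 in 2RH30 and 8.21 in 2RS30, and the differences of its probe sets were 0.45 and 0.22 (level-adjusted -0.04 and 0.10). Adcy6, its closest relative, was at -0.58 in 1 probe set and at 1.23 in a dim one, a word used here for probe sets below the median of both arrays. The remaining cyclases lay within 2-fold, from -0.34 for Adcy3, best known from olfactory neurons, to 0.44 for Adcy2.

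In the probe sets that were read, the PKA genes divided by subunit type. All 4 regulatory subunit genes were above 0 as deposited, where 56.1% of all genes were. By 2-fold or more, 3 of the 4 were higher, beside 11.5% of all genes, and level-adjusted 2, beside 8.95%. Their median was 1.23 (level-adjusted 1.04). Of the 2 catalytic subunit genes 0 reached 2-fold, and their values were -0.44 and 0.14. Both inhibitor genes were below 0 in the probe set that was read. The division was less clear with the probe sets of each gene averaged and level-adjusted. Then 3 of the 4 regulatory genes and 1 of the 2 catalytic genes were above 0. The regulatory genes were set beside the catalytic ones after their values were seen, and 4 genes on 2 arrays allow no test of that contrast.

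Prkar2b, the regulatory subunit RII-beta of endocrine and neural tissue, read 6.52 in 2RH30 and 4.37 in 2RS30. Its difference of 2.15 (level-adjusted 2.10), a 4.44-fold higher value in 2RH30, was the largest upward one of the 59 genes both as deposited and level-adjusted. Prkar1b, the RI-beta subunit known mainly from neurons, read 5.90 in 2RH30 and 4.53 in 2RS30, a difference of 1.37 (level-adjusted 1.40). Both rest on 1 probe set, and that of Prkar2b can match several transcripts and is lost when such probe sets are left out, which leaves 3 regulatory genes with 2 of them 2-fold higher. Prkar2a, the RII-alpha subunit, was higher in 2RH30 in each of its 3 probe sets, by 1.10, 0.81 and 0.67 (level-adjusted 0.68, 0.40 and 1.12), the last of them dim. Its main probe set read 8.29 in 2RH30 and 7.19 in 2RS30. Prkar1a, the broadly expressed RI-alpha subunit, read 9.66 in 2RH30 and 9.08 in 2RS30, and its 3 probe sets gave differences of 0.58, 0.53 and 0.09 (level-adjusted 0.06, 0.05 and -0.27). The deposited difference of Prkar1a therefore lay close to the general trend at its level.

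Prkaca, the alpha catalytic subunit, read 5.91 in 2RH30 and 6.35 in 2RS30, a difference of -0.44 (level-adjusted -0.63). Prkacb, the beta catalytic subunit, read 8.06 in 2RH30 and 7.93 in 2RS30, and its 3 probe sets gave differences of 0.14, 0.92 and 0.28 (level-adjusted -0.32, 0.48 and -0.11). Neither catalytic gene was thus past 2-fold in any probe set. The inhibitor peptides Pkia and Pkib bind free catalytic subunits. Pkib was the lowest member, at 2.78 in 2RH30 and 5.18 in 2RS30, and its other probe set read 2.60 in 2RH30 and 3.95 in 2RS30. Both differences, -2.40 and -1.34 (level-adjusted -1.96 and -0.92), are downward, but both probe sets are dim and both 2RH30 values are below 3.16, the 5th percentile of the 2RH30 array, which leaves their size uncertain. Pkia was at -0.28, and at 0.60 and 0.11 in its 2 dim probe sets.

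**Figure D2:**
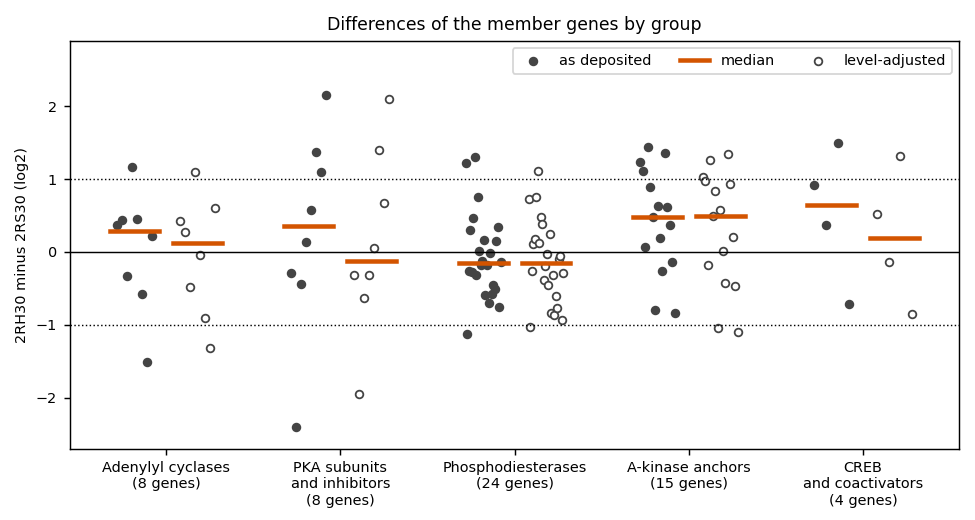
Each point is a member gene, placed by group (horizontal axis) and by 2RH30 minus 2RS30 (log2, vertical axis). Filled points are deposited values, open points are level-adjusted ones, and bars are group medians. Dotted lines mark a 2-fold difference. The anchors have medians of 0.48 and 0.49, while the median of the PKA genes is 0.36 as deposited and -0.13 level-adjusted.

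The 24 genes with a phosphodiesterase symbol had a median of -0.15, as deposited and level-adjusted, with 21 within 2-fold. Of them 2 (8.33%) were 2-fold or more higher and 1 (4.17%) lower, beside 11.5% and 9.62% of all genes. Pde10a, a dual cAMP and cGMP phosphodiesterase known from striatal neurons, was the 1 member, among those whose probe sets are not dim, with its 2 highest probe sets past 2-fold in the same direction. They read 9.11 and 8.19 in 2RH30, against 7.89 and 6.67 in 2RS30. The differences were 1.22 and 1.52 (level-adjusted 0.73 and 1.14). Pde3a, a cAMP phosphodiesterase that cGMP inhibits, read 6.69 in 2RH30 and 5.39 in 2RS30 in its 1 probe set, a difference of 1.30 (level-adjusted 1.12). The lower gene was Pde12, at 4.50 in 2RH30 and 5.62 in 2RS30, a difference of -1.12 (level-adjusted -1.04). Despite its symbol Pde12 is a mitochondrial exonuclease that acts on RNA tails and not on cyclic nucleotides. Pde4dip, myomegalin, is likewise no phosphodiesterase but a scaffold that binds PDE4D, and differed by 0.16.

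By substrate, a division made after the values were seen, the 8 cAMP-specific genes (Pde4, Pde7 and Pde8 families) lay between -0.75 and 0.75, with 4 above 0 (level-adjusted 2) and a median of -0.06 (level-adjusted -0.15). Pde4a read 7.09 in 2RH30 and 6.34 in 2RS30, a difference of 0.75 (level-adjusted 0.48). Pde8b, which in the adrenal is known from the cortex, was at -0.75 and -0.74 in its 2 probe sets (level-adjusted -0.93 and -0.58), and Pde8a at 0.34 and 0.16 (level-adjusted -0.05 and -0.16). Pde4b and Pde4d, whose transcription CREB is known to raise in several cell types, had no probe set past 2-fold and no common direction. Pde4b was at 0.01 and 0.37 (level-adjusted 0.39 and 0.81), both dim, and Pde4d at -0.12 and, dim, at 0.79 and -0.67 (level-adjusted -0.19, 0.86 and -0.57). The 7 genes of cGMP phosphodiesterases and their subunits (Pde5a, Pde6a, Pde6b, Pde6d, Pde6g, Pde6h and Pde9a) were all below 0, from -0.70 to -0.02, where 43.8% of all genes were below 0. Level-adjusted and quantile-normalized, 1 of the 7 was above 0, and 0 of them reached 2-fold. The Pde6 genes are known mainly from photoreceptors, except Pde6d, a carrier of prenylated proteins, and Pde6a lay under the 5th percentile of both arrays. The 7 dual genes (Pde1a, Pde1b, Pde1c, Pde2a, Pde3a, Pde3b and Pde10a), 4 of them dim, went the other way. Their median was 0.31 (level-adjusted 0.17), with 4 above 0 (level-adjusted 6). By 2-fold or more 2 (28.6%) were higher, beside 11.5% of all genes, and level-adjusted 1 (14.3%), beside 8.95%.

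Of the anchors, 4 of 15 (26.7%) were 2-fold or more higher in 2RH30 as deposited and 0 lower, beside 11.5% and 9.62% of all genes. Of the 15, 11 were above 0, beside 56.1% of all genes, and the median was 0.48. Level-adjusted, 3 (20%) were higher and 2 (13.3%) lower by 2-fold or more, beside 8.95% and 9.31%, with a median of 0.49. Averaging the probe sets of each gene gave a median of 0.15 with 1 gene higher, beside 9.43% of all genes. Akap12 (gravin), a scaffold under the plasma membrane, read 6.74 in 2RH30 and 5.30 in 2RS30, a difference of 1.44 (level-adjusted 1.27). Its other probe set read 4.38 in 2RH30 and 5.52 in 2RS30, a difference of -1.14 (level-adjusted -1.01). Akap1, which holds PKA at the outer mitochondrial membrane, read 6.94 in 2RH30 and 5.70 in 2RS30, a difference of 1.24 (level-adjusted 1.03). Its other probe set that was not dim read 4.75 in 2RH30 and 6.53 in 2RS30, a difference of -1.78 (level-adjusted -1.89). Akap10, a dual-specificity anchor of RI and RII subunits, had 6.33 in 2RH30 and 5.22 in 2RS30, a difference of 1.11 (level-adjusted 0.97), but -1.39 (level-adjusted -1.23) in its other probe set. For these 3 anchors the array thus gave 2-fold differences in opposite directions within 1 gene, and no direction can be stated.

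Akap6, the anchor of the nuclear envelope in heart and neurons, read 6.01 in 2RH30 and 4.66 in 2RS30, a difference of 1.36 (level-adjusted 1.34), and its dim probe set was at -0.21 (level-adjusted 0.14). Akap11 was at 0.07, and at -1.07 in a dim probe set (level-adjusted -0.18 and -0.64). Akap13, a large scaffold protein, read 8.03 in 2RH30 and 7.14 in 2RS30, and its 3 probe sets gave differences of 0.89, 0.73 and 2.16 (level-adjusted 0.49, 0.54 and 2.54), the last of them dim. All 3 were higher in 2RH30. Akap8l, a nuclear protein, read 6.98 in 2RH30 and 7.12 in 2RS30, a difference of -0.14 (level-adjusted -0.46). Its other probe sets read 7.52 and 6.32 in 2RH30, against 6.47 and 5.41 in 2RS30, differences of 1.05 and 0.91 (level-adjusted 0.74 and 0.75). Akap9, the anchor of the Golgi and centrosome, read 6.24 in 2RH30 and 7.07 in 2RS30, and both of its probe sets were below 0, at -0.84 and -0.36 (level-adjusted -1.10 and -0.54). Akap17a, better known as a splicing factor, differed by -0.80 (level-adjusted -1.04). Akap5, the neuronal anchor at ion channels and receptors, differed by -0.26 (level-adjusted -0.42), and the sperm anchors Akap3 and Akap4 by 0.62 and 0.19 (level-adjusted 0.58 and 0.01).

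The 4 genes of CREB and its coactivators had a median of 0.65 (level-adjusted 0.19), which was -0.05 when the probe sets of each gene were averaged. Creb1 read 7.97 in 2RH30 and 7.06 in 2RS30, a difference of 0.91 (level-adjusted 0.52). A second probe set read 6.79 in 2RH30 and 5.79 in 2RS30, just past 2-fold (level-adjusted 0.79), while the remaining ones were at -0.57 and, dim, at -1.22 (level-adjusted -0.57 and -0.80). Crebbp, the acetyltransferase CBP, read 9.12 in 2RH30 and 8.75 in 2RS30, a difference of 0.38 (level-adjusted -0.14), and its 4 other probe sets ranged from -1.14 to 0.98. Crtc1, a coactivator that calcium and cAMP send to the nucleus, read 6.72 in 2RH30 and 5.23 in 2RS30, a difference of 1.49 (level-adjusted 1.32). Its other probe set was at -0.47 (level-adjusted -0.64). Crtc2, its relative known from gluconeogenesis in liver, differed by -0.72 (level-adjusted -0.85) in its 1 probe set.

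**Figure D3:**
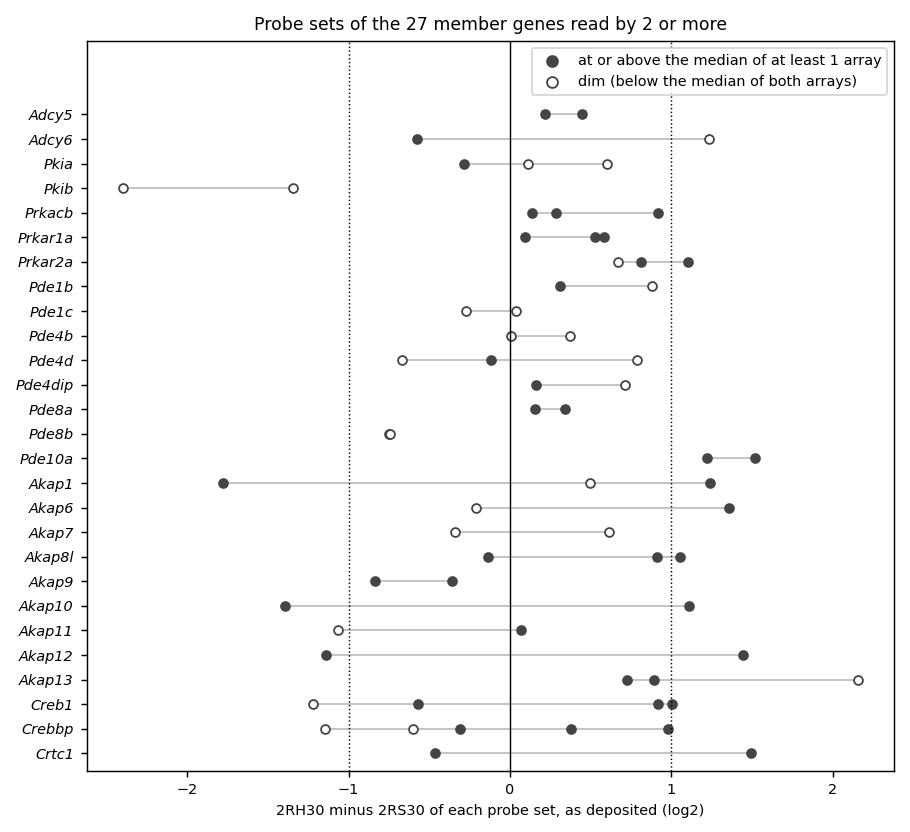
Deposited 2RH30 minus 2RS30 (log2, horizontal axis) for every probe set of the 27 member genes that have 2 or more (vertical axis). Dim probe sets are drawn open, and the filled point of Pde8b lies behind its open one. Dotted lines mark a 2-fold difference. Both points of Pde10a lie above 1 and those of Prkar2a, Akap13 and Prkar1a above 0. Akap1, Akap10 and Akap12 each have a point beyond either dotted line, and the dim point of Akap1 lies between the lines at 0.49.

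How far single readings can be taken was measured from genes read more than once. Of the 11 genes that were 2-fold higher, 4 have 1 probe set. Of the other 7, Pde10a and Prkar2a had all their probe sets on the same side of 0, and 5 did not (Akap1, Akap6, Akap10, Akap12 and Crtc1). Among the 15 members with 2 or more probe sets that were not dim, the 2 with the highest means had the same sign in 10 (66.7%), and level-adjusted in 7 (46.7%). Over all 2539 such genes the shares were 60.8% and 50.7%. The SD between probe sets of 1 gene was 0.92 for these members and 0.82 for all such genes, beside 0.86 for the SD of differences across the whole array. Prkar2b and Pkib differed by more than 1.84, 2 times the SD between probe sets of these members, as 3.66% of all genes did. That SD comes from genes with 2 or more probe sets that were not dim. Prkar2b has 1 probe set and those of Pkib are dim, so neither gene is part of it. Spread among rats or among pools is not part of this SD.

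**Figure D4:**
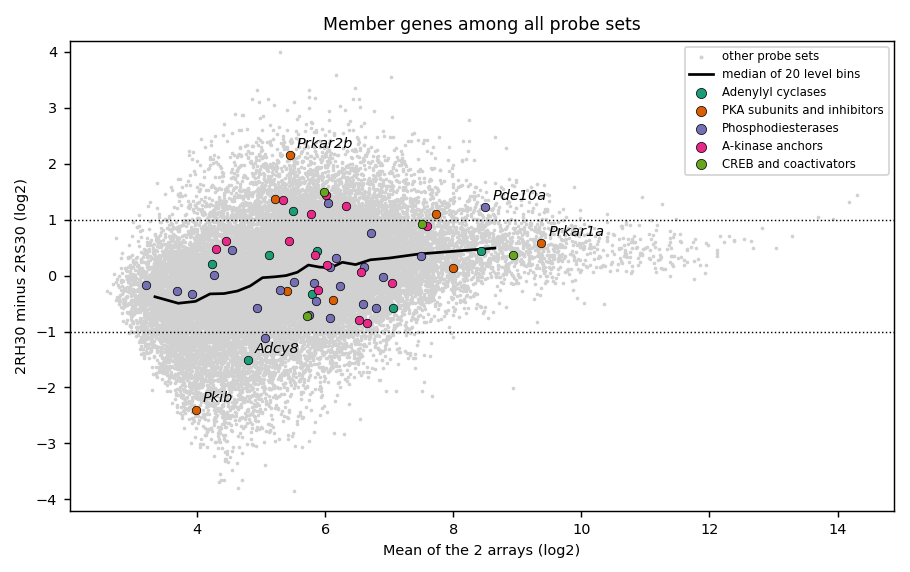
The vertical axis is 2RH30 minus 2RS30 and the horizontal axis the mean of the 2 arrays (both log2), for the 59 member genes (coloured by group) and all probe sets (grey), with the median of 20 level bins (black line). Dotted lines show 2-fold. The bin median is -0.38 in the dimmest bin and 0.49 in the brightest, and the members lie within the cloud of all probe sets.

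Promoters of Pde10a and Creb1 are shown because Pde10a had both probe sets past 2-fold in the same direction and Creb1 is the transcription factor of the pathway. CREB binds the palindrome TGACGTCA and, less tightly, its core TGACG. The core, searched as TGACG and CGTCA for the 2 strands, stands in capitals in these RefSeq sequences of 300 bases in the GRCr8 build, 250 before the transcript start and 50 from it. Each is 1 of the 2 annotated starts of its gene, at chr1:54765619-54765918 on the minus strand and chr9:73397259-73397558 on the plus strand.
Pde10a: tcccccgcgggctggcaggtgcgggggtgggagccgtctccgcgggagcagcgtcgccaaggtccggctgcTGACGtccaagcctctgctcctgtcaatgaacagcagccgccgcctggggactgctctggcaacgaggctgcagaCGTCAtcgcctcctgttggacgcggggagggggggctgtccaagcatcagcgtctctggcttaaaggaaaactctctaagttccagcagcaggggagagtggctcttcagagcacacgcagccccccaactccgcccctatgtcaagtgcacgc
Creb1: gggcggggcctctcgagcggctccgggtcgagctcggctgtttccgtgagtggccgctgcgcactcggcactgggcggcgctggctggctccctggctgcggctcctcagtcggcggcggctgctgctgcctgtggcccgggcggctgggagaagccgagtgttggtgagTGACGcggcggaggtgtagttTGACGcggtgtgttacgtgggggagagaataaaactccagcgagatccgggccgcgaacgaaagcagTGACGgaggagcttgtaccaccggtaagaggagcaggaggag
The Pde10a window holds the core 2 times, beginning 179 and 104 bases before the start, and the Creb1 window 3 times, beginning 80 and 59 bases before the start and at base 9 of the transcript. The windows of the other start of each gene hold 0.

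A promoter sequence was at hand for 46 of the 59 genes. The core occurred in at least 1 window of 13 of them (28.3%), beside 30.1% of the 11700 genes of the array with a window, and in 21.2% of all 33469 windows. The palindrome, which includes the core on both strands, occurred in 1 (2.17%), Akap17a, beside 2.93%. The 13 genes with the core had a median difference of 0.14 (level-adjusted -0.18), and 1 of them, Pde10a, was 2-fold or more apart. The 33 without it had a median of 0.38 (level-adjusted 0.25), with 9 higher and 2 lower by 2-fold or more. Over all genes 11.5% were higher and 9.62% lower. These shares were not computed for array genes split by the core, so the counts of the 13 and 33 genes have no background of their own. A match of letters is a description and not a binding site.

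Other genes of the pathway were read from lists that do not use the symbol rule, though Pde4b is also among the CREB targets. Sik1 and Crem are each listed both among the CREB relatives and among the CREB targets. Over all genes, 11.5% were 2-fold or more higher and 9.62% lower (level-adjusted 8.95% and 9.31%), shares that stand beside each count below. Of 6 measured G protein alpha subunits 1 was 2-fold or more higher and 0 were lower. This was Gnao1, the Go subunit of neurons and chromaffin cells, at 6.19 in 2RH30 and 3.77 in 2RS30, a difference of 2.43 (level-adjusted 2.55) in 1 probe set. Its 2RS30 value lies near 3.67, the 5th percentile of that array, which leaves the size of the difference uncertain. The study lists Gnao1 as lower after recurrent hypoglycemia before the clamp and at a later time in it. Gnas, the Gs subunit that activates cyclases, read 11.48 in 2RH30 and 10.75 in 2RS30, but its 3 probe sets gave differences of 0.74, 1.01 and -0.39 (level-adjusted 0.17, 0.72 and -0.67). Of 18 receptors that act on cyclases 1 was 2-fold higher, the inhibitory receptor Adra2c at 1.33 (level-adjusted 1.17), and 2 were lower, of which Adora2a, the stimulatory adenosine receptor, read 5.48 in 2RH30 and 6.48 in 2RS30 in 1 probe set, just past 2-fold (level-adjusted -1.17), and differed by 0.30 (level-adjusted 0.16) in the other. Ptger3, counted at -0.20, was at -1.97 in its other probe set (level-adjusted -0.43 and -1.93). The PACAP receptor gene Adcyap1r1 differed by -0.16 to 0.25 over its 4 probe sets. Of 9 other cAMP-binding proteins 0 were higher and 2 lower by 2-fold (level-adjusted 1), Cnga1 and Rapgef4 (Epac2), both dim.

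Among 7 CREB relatives and partners, with the inhibitor Pkig, 2 were 2-fold or more higher (level-adjusted 1) and 1 lower. Sik1, a kinase that restrains the CRTC coactivators, was at 1.55 and 0.32 in its 2 probe sets (level-adjusted 1.14 and 0.02), Crtc3 at 1.09 and 0.85 (level-adjusted 0.97 and 0.73), and Sik2 at -1.22 and -0.39 (level-adjusted -1.24 and -0.22). Crem, which encodes CREM and the repressor ICER, was singled out after its values were seen. All 6 of its probe sets were higher in 2RH30, by 0.69 to 1.90 (level-adjusted 0.26 to 1.53), and 3 of them by 2-fold or more. The probe set with the highest mean read 10.12 in 2RH30 and 9.16 in 2RS30. Of 16 known CREB targets, Sik1 and Crem again among them, 4 (25%) were 2-fold or more higher and 2 (12.5%) lower, beside 11.5% and 9.62% of all genes. Level-adjusted, 4 were higher and 1 lower, beside 8.95% and 9.31%. The median was 0.53 (level-adjusted 0.15). This list was chosen with earlier results known. It holds Penk, Gal and Vgf, which the study lists among the genes most raised by recurrent hypoglycemia before the clamp. Penk and Gal are among the 4 higher genes, so the share of the list is no independent result. Dusp1, counted at 0.10, was at 2.08 in its other probe set (level-adjusted -0.30 and 1.69). The 2 highest were Penk, the enkephalin precursor, at 9.97 in 2RH30 and 7.69 in 2RS30, a difference of 2.28 (level-adjusted 1.77), and Nr4a3, a nuclear receptor, whose 3 probe sets gave differences of 1.58, 0.36 and 0.96 (level-adjusted 1.17, 0.09 and 0.80). The lowest that were not dim were Bdnf, at -1.92 and, in a dim probe set, -0.16 (level-adjusted -1.94 and 0.28), and Fos at -0.17 and, in a dim one, -0.56 (level-adjusted -0.39 and -0.27).

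The pools were checked against cell type markers. All 7 chromaffin genes were measured, between 6.69 and 11.96 in 2RH30 and between 6.36 and 11.45 in 2RS30, where the array medians were 5.51 and 5.50, and 0 of them was 2-fold apart. Genes of the adrenal cortex, 6 of 8 measured, lay between 9.06 and 12.51 in 2RH30 and between 8.73 and 11.81 in 2RS30. Both pools thus hold cortical RNA. In the probe set that was read 0 were 2-fold apart (median 0.59, level-adjusted 0.04). The other probe set of Nr5a1, not dim, differed by 1.69 (level-adjusted 1.39). Of 7 macrophage markers 4 were 2-fold higher and 0 lower, with a median of 1.33 (level-adjusted 1.03). The 4 were the complement genes C1qa, C1qb and C1qc, at 2.71, 1.38 and 1.33, and the lysosomal gene Cd68, at 1.60. The 2RS30 value of C1qa, 3.06, is below 3.67, the 5th percentile of that array, which leaves the size of its difference uncertain. Csf1r, the receptor that macrophages need to survive, and Ptprc, the pan-leukocyte CD45, were at -0.77 and -0.71 (level-adjusted -0.89 and -0.79), and Aif1, dim, was at 0.36, so the markers did not share a direction. Of 5 endothelial, 3 Schwann and sustentacular and 5 fibroblast markers 0 were 2-fold apart, and of 4 adipocyte markers 1 was lower (Fabp4, -1.19). None of these markers read 0, as the values have no zero. The part of macrophage or cortical RNA in the differences of the pathway genes was not tested, and in pooled tissue fewer cells of a type and less RNA per cell cannot be told apart.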

How the data were processed

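The deposited log2 values of the authors, normalized by them, were analysed as they stand. Affymetrix Expression Console is named in the submission notes, and GCRMA in Partek in the methods. Which of these made the deposited values is unclear, and the scale was taken as log2 because of their range. Of 31099 probe sets, 57 controls were set aside. Probe sets were named from the platform annotation, and symbols were updated by gene number through RefSeq (GRCr8), which matched 20758 of 20826 single-gene probe sets. The members and lists were chosen with earlier results of these data known. Lowess used a fraction of 0.3 and 3 iterations on all 31042 probe sets, and was tested on simulated data. With 1 array per group no test was fitted, and the number of arrays limits the precision.

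Values on both arrays are given for members past 2-fold that are not dim, for the member with the highest mean in each group, and for members with probe sets that are not dim on opposite sides of 0, at least 1 of them by 2-fold. Pkib, Adcy6, Prkaca and other members were named for completeness. From each neighbouring list, at most 2 genes at either end of the order were eligible, dim ones left out. Gnas, Adcyap1r1, Ptger3, Cnga1, Rapgef4, Crem and Dusp1 were named outside that rule. Alternatives were scalings, thresholds, filters and ways of combining probe sets. Lowess came from statsmodels 0.14.6, tables from pandas 2.3.3 and figures from matplotlib 3.10.9, under Python 3.11.15.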

Additional observations from a re-analysis of the deposited data

How the results depend on the processing

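The 11 genes higher and 3 lower by 2-fold (11.5% and 9.62% of all genes) became 6 higher when probe sets were averaged (9.43% of all genes) and 5 higher when averaging was joined with level adjustment (7.92%), a choice added after the data were seen. The lower count was 5 after quantile normalization (9.31% of all genes) and 5 level-adjusted (9.31% of all genes). Counted by probe set, 16 of 99 (16.2%) were higher and 10 (10.1%) lower, beside 11.8% and 10.4% of all single-gene probe sets. At 1.5-fold 16 of 59 genes were higher and 9 lower, beside 25.9% and 19.4% of all genes. At 3-fold 1 was higher and 1 lower, beside 3.05% and 3.21% of all genes. The change of counts with the threshold is by construction. The median of 0.15 was 0.00398 after quantile normalization and -0.024 level-adjusted. Akap1, at 1.24, was -0.0158 when averaged, -0.0904 when also level-adjusted, and -1.78 without probe sets that can match several transcripts; Akap10, at 1.11, was -0.143 and -0.129 with the first 2 of these. Of 132 alternative values of named genes, 15 changed sign: these 5, and 10 of Adcy5, Akap8l, Creb1, Crebbp and Prkar1a, whose deposited differences are within 2-fold. Prkar2b has no value without probe sets that can match several transcripts. Beyond construction, the cause was not tested. Pseudocounts and leaving out replicates were not run, since values are on a log scale with 1 array per group. No paired analysis was possible because neither group has a second array. Detection calls were not used here, so dim values have no stated limit.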
